A study of Homo sapiens with 2 samples.

Results

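WNT ligands, their receptors, their secreted agonists and antagonists and 5 genes that WNT signalling itself induces were followed in enteric neural crest cultures of the human embryonic stem cell line H9. The genes were chosen by name alone, as every WNT, FZD, SFRP, DKK and RSPO gene together with AXIN2, LEF1, NKD1, SP5 and NOTUM, which gave 46 members among the 33694 genes listed. They comprised 19 ligands, 10 receptors, 4 agonists, 8 antagonists and 5 feedback genes. One library (day 10) came from adherent cultures on Geltrex during enteric neural crest induction, and 1 (day 15) from free-floating enteric crestospheres made from such cultures. Both groups went through the same induction, which begins with BMP4, keeps the TGF-β receptor inhibitor SB431542 and the GSK3 inhibitor CHIR 99021 in the medium and later adds retinoic acid. CHIR 99021 switches on WNT signalling inside the cell. Crestospheres then form in medium with FGF2 at 10 ng per ml and CHIR 99021 at 3 µM, a higher concentration than during induction, without SB431542 or retinoic acid. Cells from 2 biological repeats went into each library, and the deposited metadata hold no label of the repeat. Each stage is therefore 1 sample (n = 1), and stage, culture format, medium and library cannot be told apart. No test between stages or cell types was possible, and the intervals given are exact 95% intervals of counting error only.

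WNT proteins are secreted, lipid-modified ligands that bind Frizzled (FZD) receptors together with the co-receptors LRP5 and LRP6. Binding holds back the complex of AXIN, APC and GSK3 that otherwise marks β-catenin for destruction, and β-catenin then enters the nucleus and works with TCF and LEF factors. SFRP proteins bind WNT ligands, DKK proteins occupy the co-receptors, and RSPO proteins protect the receptors from removal. In the embryo, WNT signals at the border of the neural plate help to specify the neural crest, and an inhibitor of GSK3 acts below the receptor, so that it does not need a ligand.

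The libraries held 9627 cells with 70488169 unique molecular identifiers (UMIs) at day 10 and 6320 cells with 84976253 UMIs at day 15. Levels are UMIs of a gene per 1000000 UMIs of the same cells (CPM). A UMI stands for 1 captured 3′ end, so that levels of different genes can be set side by side without a correction for length. The authors' annotation was used for cell types: enteric neural crest cells (ENCCs), neuro-epithelial progenitors (NEP), cranial placode (CP) and non-neural ectoderm (NNE) at day 10, and ENCCs, NEP, 2 placode clusters (CP1 and CP2) and mesenchymal cells (Mes) at day 15. These clusters were built from the same counts, and WNT2B is one of the genes by which NEP was named, so levels by type are a description. The libraries shared 102 cell barcodes, 1.06% of those at day 10 and 1.61% at day 15.

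Markers matched the ENCC, NNE, CP, CP1 and Mes labels, the day 10 NEP and day 15 CP2 labels only in part, and the day 15 NEP label not. ENCC markers summed to 2033 CPM in day 10 ENCCs and 1117 CPM in day 15 ENCCs, the highest of their library in both. The NEP marker list was highest in the day 10 NEP cluster, at 589 CPM. PAX6 carried it, at 572 CPM, while SOX1, LHX2, HES5 and SIX3 were each under 1 CPM and SOX2 was at 16.1 CPM against 21.2 CPM in ENCCs. The same cluster carried keratins of surface epithelium, with KRT8 at 483, KRT18 at 538 and KRT19 at 266 CPM. At day 15 the NEP marker list summed higher in CP2, at 430 CPM, than in NEP, at 145 CPM, and the NNE marker list was highest in NEP, at 928 CPM, with KRT8 at 341, KRT18 at 374 and KRT19 at 168 CPM. The CP marker list summed to 323 CPM in CP2, below the 1222 CPM of CP1 but above Mes, at 33.9 CPM, ENCCs and NEP. The names NEP and CP2 are therefore used below only as the names of these clusters, and NEP of day 10 and NEP of day 15 share a name without being shown to be the same cells. Small clusters limit precision, as 3 UMIs correspond to 0.0812 CPM in day 10 ENCCs but to 2.62 CPM in the 104 day 15 NEP cells, 5.35 CPM in the 47 Mes cells and 7.46 CPM in the 43 CP2 cells.

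One group of cells had to be treated separately. Of the 4921 day 10 ENCCs, 4665 belonged to the numbered subclusters ENCC 1 to ENCC 4, and 256 were labelled ENCC as a type but were outside the crest in the deposited subclustering. Those 256 cells held 649 CPM of WNT2B (Poisson interval 616 to 683) and 458 CPM of PAX6, near the NEP levels, against 10.8 CPM of WNT2B (9.69 to 11.9) and 6.69 CPM of PAX6 in the numbered cells. Their median depth was 8376.5 UMIs, against 6943 UMIs for the numbered cells and 7227 UMIs for NEP. At day 15 only 27 of 4934 ENCCs lay outside ENCC 1′ to ENCC 4′. For the crest subclustering, the paper's supplement lists clusters as removed, at day 10 for high placode genes and at day 15 for high SYP. It does not say whether those were the cells set apart here. Values for ENCCs include these cells unless numbered cells are named. For the main results that moved without them, the values of numbered cells are given as well.

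Most members were scarce. WNT7A, WNT8A and WNT8B had no UMI in either library, and 7 of the 46 members had at most 3 UMIs in both. At least 10 UMIs were counted for 32 members at day 10 and for 30 at day 15. Only 20 members reached 5 CPM with at least 10 UMIs in an annotated cell type of either stage, and these, with NOTUM, are the 21 genes described below. The other 25 stayed at or under 4.49 CPM in every type in which they had 10 UMIs.

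**Figure D1:**
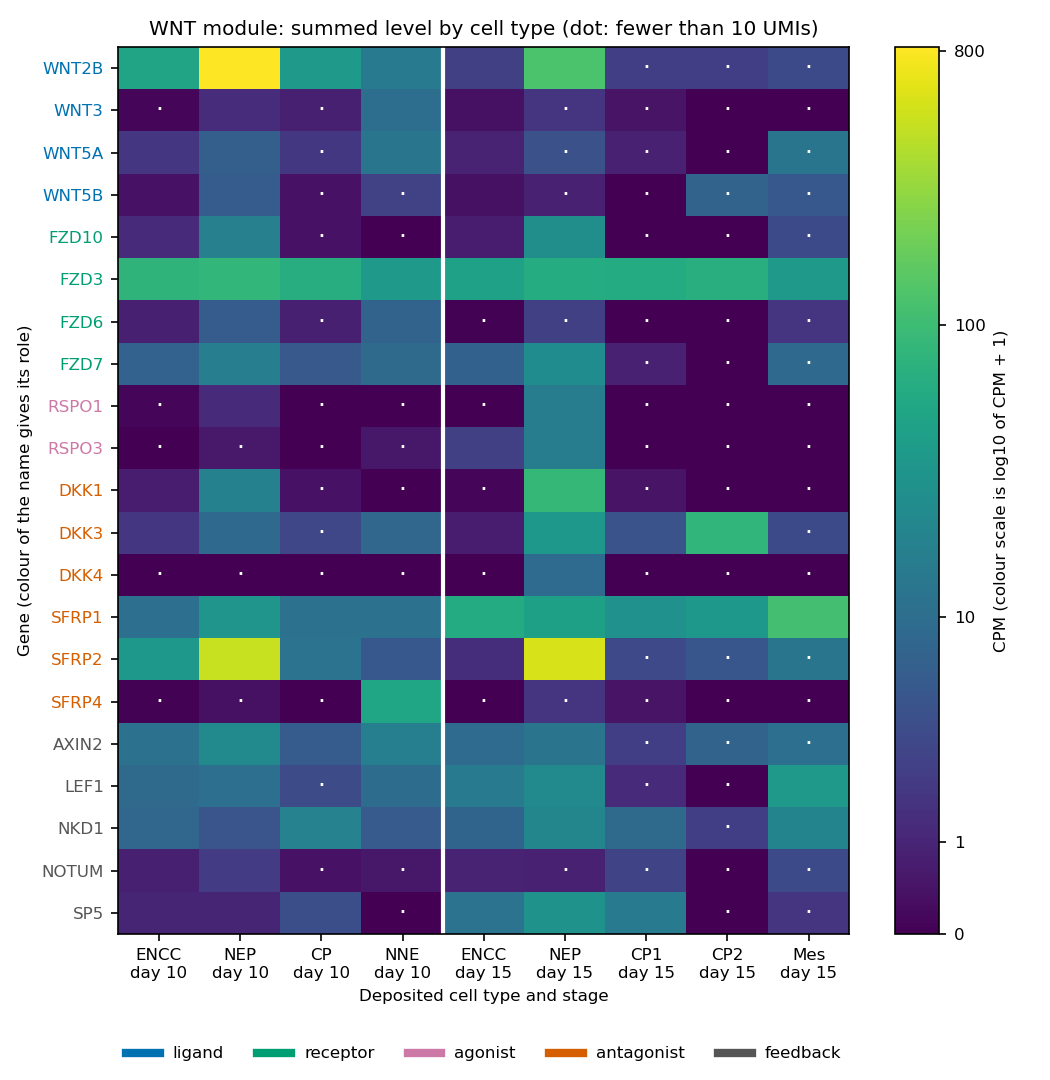
Level of the 21 described genes (rows, grouped by role) in each deposited cell type of the day 10 library (left of the white line) and the day 15 library (right), as CPM on a logarithmic colour scale; a dot marks fewer than 10 UMIs. WNT2B and SFRP2 stood out in NEP of both stages, FZD3 was high in every column, and SFRP4 was high in NNE.

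WNT2B was the dominant ligand of the day 10 cultures, and of its 13563 UMIs in kept cells, 11613 came from the NEP cluster and 1460 from the 256 ENCCs set apart above. WNT2B (chromosome 1, 112466541 to 112530165, plus strand, GRCh38) was at 827 CPM in NEP (812 to 842), rank 144 of the 19706 genes with a UMI there, at 35.5 CPM in CP (28.5 to 43.7) and at 15.2 CPM in NNE (10.1 to 21.9). It made up 97.4% of all ligand UMIs in NEP and 82.2% in numbered ENCCs. In day 15 NEP it was at 123 CPM (104 to 145), and in day 15 ENCCs at 2.54 CPM (2.14 to 3.00). CP2 cells of day 15, with PAX6 at 381 CPM, had a single WNT2B UMI, so the pair was not high together in every cluster.

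The remaining ligands were low and had other peaks. WNT5A, which acts mainly through branches that do not need β-catenin, was highest in NNE at day 10, at 12.5 CPM (7.90 to 18.7), against 6.62 CPM in NEP (5.35 to 8.12) and 1.87 CPM in ENCCs (1.45 to 2.36). WNT3 was at 10.3 CPM in NNE (6.20 to 16.1), at 1.35 CPM in NEP (0.815 to 2.11) and at 0.135 CPM in ENCCs (0.0439 to 0.316). WNT5B was highest in NEP, at 6.05 CPM (4.84 to 7.49) against 0.379 CPM in ENCCs (0.207 to 0.636). At day 15 no ligand other than WNT2B had 10 UMIs in a type other than ENCCs, where WNT5A was at 0.931 CPM (0.695 to 1.22). In the 47 Mes cells WNT5A had 7 UMIs, or 12.5 CPM (5.02 to 25.7).

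Among receptors, FZD3 was the most abundant in every cell type of both stages. FZD3 is best known for its part in planar polarity and axon guidance. It was at 78.5 CPM in day 10 ENCCs (75.7 to 81.4), 84.2 in NEP (79.5 to 89.1), 64.6 in CP (55 to 75.4) and 35.8 in NNE (27.6 to 45.5). At day 15 it was at 45.2 CPM in ENCCs (43.5 to 47.0), 62.8 in NEP (49.1 to 79.0), 61.5 in CP1 (52.0 to 72.3), 67.2 in CP2 (44.3 to 97.7) and 35.7 in Mes (21.8 to 55.1). FZD3 thus made up 85.9% of the receptor UMIs of ENCCs at day 10 and 76.0% at day 15, and 48.6% in day 15 NEP, where the share was lowest. In day 15 NEP, CP1 and CP2 the levels did not differ beyond their intervals.

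FZD7 and FZD10 are receptors that can signal through β-catenin. FZD7 was at 16.8 CPM in day 10 NEP (14.7 to 19.1) and 7.33 CPM in ENCCs (6.49 to 8.26), and at 25.3 CPM in day 15 NEP (16.9 to 36.3) and 7.16 CPM in ENCCs (6.48 to 7.90). In CP1 only 2 FZD7 UMIs were counted, or 0.837 CPM (0.101 to 3.02). FZD10 was closer to a NEP gene, at 17.5 CPM in day 10 NEP (15.4 to 19.9) and 27.0 CPM in day 15 NEP (18.4 to 38.4), and ENCCs were at 1.22 CPM (0.888 to 1.63) and 0.680 CPM (0.481 to 0.934). FZD6 was at 7.58 CPM in NNE (4.15 to 12.7) and 6.05 CPM in NEP (4.84 to 7.49) at day 10, levels that overlapped, and had 23 UMIs in the whole day 15 library.

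The R-spondins, the agonists, were nearly absent at day 10. At day 15 RSPO1 and RSPO3 were seen in NEP, and RSPO3 also in a part of the ENCCs. RSPO2, with 9 UMIs at day 10 and 7 at day 15, and RSPO4, with 16 and 27, stayed scarce. RSPO3 (chromosome 6, 127118604 to 127197765, plus strand) had no UMI in day 10 ENCCs, which allows up to 0.0812 CPM, and 143 UMIs in day 15 ENCCs, or 2.56 CPM (2.16 to 3.02). In day 15 NEP it was at 15.7 CPM (9.30 to 24.8), and CP1, CP2 and Mes had none. RSPO1 was at 1.21 CPM in day 10 NEP (0.705 to 1.94) and at 15.7 CPM in day 15 NEP (9.30 to 24.8), with 1 UMI in all day 15 ENCCs. Together the agonists summed to 32.2 CPM in day 15 NEP (22.7 to 44.5), against 2.42 CPM in day 10 NEP (1.68 to 3.38).

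The leading antagonist differed between clusters: SFRP2 in NEP of both stages and in day 10 ENCCs, SFRP4 in NNE, SFRP1 in day 15 ENCCs, CP1 and Mes, and DKK3 in CP2. In day 10 CP none led, with 30 UMIs of SFRP2 and 29 of SFRP1. SFRP2 (chromosome 4, 153780592 to 153789120, minus strand) was at 468 CPM in day 10 NEP (457 to 480), rank 219 of 19706 genes, and at 555 CPM in day 15 NEP (513 to 600), rank 203 of 15086. The 2 clusters named NEP thus differed in WNT2B, which was lower at day 15, and SFRP2 was higher there. It was at 35.2 CPM in all day 10 ENCCs (33.4 to 37.2), 12.8 CPM in the numbered ones (11.7 to 14.1), and 1.38 CPM in day 15 ENCCs (1.09 to 1.72).

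SFRP4 (chromosome 7, 37905932 to 38025695, minus strand) had 96 UMIs in NNE, or 52.0 CPM (42.1 to 63.5), 5 in NEP, 1 in ENCCs and none in CP. At an equal depth of 3000 UMIs per cell, 8.51% of 235 NNE cells had an SFRP4 UMI (Clopper-Pearson interval 5.28 to 12.8) and 0 of 4919 ENCCs, which allows a share of up to 0.0610%. Median depths before thinning were 7349 UMIs in NNE and 7004 in ENCCs. No cluster named NNE was annotated at day 15, where the keratins were highest in NEP as given above, and the whole day 15 library held 6 SFRP4 UMIs.

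DKK1 (chromosome 10, 52314296 to 52318042, plus strand), a co-receptor antagonist and itself a known WNT target, was at 18.1 CPM in day 10 NEP (15.9 to 20.5) and 86.3 CPM in day 15 NEP (70.1 to 105). In ENCCs it was at 0.731 CPM (0.482 to 1.06), or 0.202 CPM (0.0811 to 0.416) in the numbered ones, at day 10 and 0.107 CPM (0.0394 to 0.234) at day 15, and NNE had none. DKK4 had 11 UMIs in day 15 NEP, or 9.59 CPM (4.79 to 17.2), and no UMI in any other day 15 type or in the whole day 10 library. DKK3, which despite its name is not an established inhibitor of the co-receptors, was at 82.1 CPM in CP2 (56.5 to 115) and 34.9 CPM in day 15 NEP (24.9 to 47.5), against 0.716 CPM in ENCCs (0.512 to 0.975).

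SFRP1 was the antagonist of the day 15 ENCCs, where it made up 96.3% of all antagonist UMIs. It was at 60.9 CPM there (58.9 to 63.0), against 10.6 CPM in day 10 ENCCs (9.59 to 11.7). The other day 15 clusters were at 111 CPM (Mes, 84.8 to 142), 44.5 CPM (NEP, 33.1 to 58.5), 34.8 CPM (CP2, 19.0 to 58.4) and 29.3 CPM (CP1, 22.9 to 37.0), and the other day 10 clusters at 32.4 CPM (NEP, 29.5 to 35.5), 11.6 CPM (CP, 7.75 to 16.6) and 11.4 CPM (NNE, 7.04 to 17.4). The interval of every day 15 cluster lay above those of day 10 ENCCs, CP and NNE, while day 10 NEP overlapped NEP, CP1 and CP2 of day 15.

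Feedback genes report on β-catenin activity, and they did not move as 1 group. SP5, a transcription factor that is a direct target of β-catenin, was at 1.00 CPM in day 10 ENCCs (0.705 to 1.38) and 11.9 CPM in day 15 ENCCs (11 to 12.8). AXIN2, a scaffold of the destruction complex and the most used reporter of the pathway, was at 11.2 CPM (10.2 to 12.4) and 9.49 CPM (8.70 to 10.3). NKD1, which restrains Dishevelled, was at 8.28 CPM (7.38 to 9.26) and 7.66 CPM (6.96 to 8.43). LEF1, a nuclear partner of β-catenin, was at 9.28 CPM (8.33 to 10.3) and 15 CPM (14 to 16). NOTUM, an enzyme that removes the lipid from WNT ligands, was at 0.785 CPM (0.526 to 1.13) and 0.931 CPM (0.695 to 1.22). SP5 thus stood apart between the stages, while AXIN2 was 1.18-fold lower at day 15 (1.04 to 1.35) and the intervals of NKD1 and NOTUM overlapped. The AXIN2 difference was not stable, with a log2 ratio of CPM + 1 of -0.22 in all ENCCs, -0.14 in numbered ENCCs and 0.06 at 3000 UMIs per cell.

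Across cell types the feedback genes again peaked in different places. At day 10, AXIN2 was highest in NEP, at 23.1 CPM (20.7 to 25.8), followed by NNE at 17.3 CPM (11.9 to 24.5), whose interval overlapped it, and was lowest in CP at 5.98 CPM (3.35 to 9.87). NKD1 ran the other way, at 18.8 CPM in CP (13.8 to 24.9) and 4.84 CPM in NEP (3.76 to 6.14). LEF1 was at 10.6 CPM in NEP (8.98 to 12.5), 9.75 in NNE (5.78 to 15.4) and 3.59 in CP (1.64 to 6.81). At day 15, SP5 was at 29.6 CPM in NEP (20.5 to 41.4) and 14.7 CPM in CP1 (10.2 to 20.4), with 1 UMI in Mes and none in CP2. In CP1 the SP5 level stood beside only 3 UMIs of LEF1, or 1.26 CPM (0.259 to 3.67), and 6 UMIs of AXIN2, or 2.51 CPM (0.922 to 5.47). LEF1 was highest in Mes, at 35.7 CPM (21.8 to 55.1), and NKD1 was at 20.9 CPM in NEP (13.4 to 31.1) and 19.6 CPM in Mes (9.79 to 35.1).

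Promoter sequence is shown for the members whose upstream window held a TCF/LEF core, because SP5, the feedback gene that differed most between stages, and DKK1, the co-receptor antagonist of the NEP cluster, are known targets of the pathway. The 250 bases before the annotated start were read from RefSeq (GRCh38.p14), in which 30 of the 46 members had a window. The motifs CTTTGAA and CTTTGAT were searched on both strands, a choice made with the levels known. Of all 35116 windows of this length, 5.94% held at least 1 of the motifs, 3.80% held CTTTGAA and 2.26% held CTTTGAT. Capitals mark the matches, written on the strand of the gene:
SP5: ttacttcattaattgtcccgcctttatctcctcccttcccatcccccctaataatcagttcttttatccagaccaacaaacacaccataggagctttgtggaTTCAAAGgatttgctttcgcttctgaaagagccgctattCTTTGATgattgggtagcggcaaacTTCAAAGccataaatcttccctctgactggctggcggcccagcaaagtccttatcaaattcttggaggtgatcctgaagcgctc
DKK1: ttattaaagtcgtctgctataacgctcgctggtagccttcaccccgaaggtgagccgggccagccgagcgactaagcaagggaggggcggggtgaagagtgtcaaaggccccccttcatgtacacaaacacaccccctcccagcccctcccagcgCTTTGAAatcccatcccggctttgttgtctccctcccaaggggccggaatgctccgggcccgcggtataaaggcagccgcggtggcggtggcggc

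The SP5 window (chr2:170715087-170715336, plus strand) held 3 matches, whose first bases lay 148, 109 and 84 bases before the start. Windows with 3 or more matches were 0.0199% of all windows. The gene itself is annotated at chromosome 2, 170715351 to 170718078, on the plus strand. The DKK1 window (chr10:52314031-52314280, plus strand) held 1 match, 95 bases before the start. No other member with a window held either motif. Members with a match were thus 2 of 30, near the share of all windows with either motif, 5.94%. AXIN2, NKD1 and NOTUM had no window, so of the feedback genes only SP5 and LEF1 were searched. Other forms of the TCF/LEF core were not searched. A match describes the sequence and is not evidence of a bound factor.

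Between the stages, the ENCCs differed in few members and in opposite directions. At day 15, SP5 was 11.9-fold higher (8.52 to 17.0), SFRP1 5.74-fold higher (5.17 to 6.39) and RSPO3 at least 31.5-fold higher. The last value divides the day 15 level by the limit that no UMI in the day 10 ENCCs allows, and leaves out the counting error of the day 15 level. SFRP2 was 25.6-fold lower (20.3 to 32.6) and WNT2B 19.5-fold lower (16.4 to 23.3). A gene was counted as past 2-fold when the log2 ratio of CPM + 1 reached 1 and it had 10 UMIs and 1 CPM in 1 of the 2 groups, a scale that understates the change of low genes. A gene under 1 CPM in 1 group entered through the other group, and could only be called as higher in that group. This held for members and for all genes, in this and the later comparisons. Of the 16 members that could be compared, 3 were past 2-fold higher and 2 lower, against 7.75% and 6.70% of the 12707 genes compared. The median log2 ratio of the 16 members was -0.06, and that of all genes was -0.14.

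The size of the lower group depended on the 256 ENCCs outside the numbered subclusters. With numbered cells alone, WNT2B was 4.20-fold lower (3.46 to 5.14) and SFRP2 9.89-fold lower (7.70 to 12.9), while SP5 was 12.5-fold higher (8.81 to 18.3) and SFRP1 6.68-fold higher (5.96 to 7.52). The same 5 members passed 2-fold, of 15 compared, against 8.27% of 12556 genes higher and 5.61% lower. In those numbered cells PAX6, which marks the NEP cluster, was at 6.69 CPM (5.85 to 7.60) at day 10 and at 0.144 CPM at day 15 (0.0622 to 0.284), and the part of NEP RNA in the WNT2B and SFRP2 values was not tested. FZD3 was 1.74-fold lower at day 15 (1.65 to 1.83) in all ENCCs and LEF1 1.61-fold higher (1.42 to 1.83), neither past 2-fold.

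**Figure D2:**
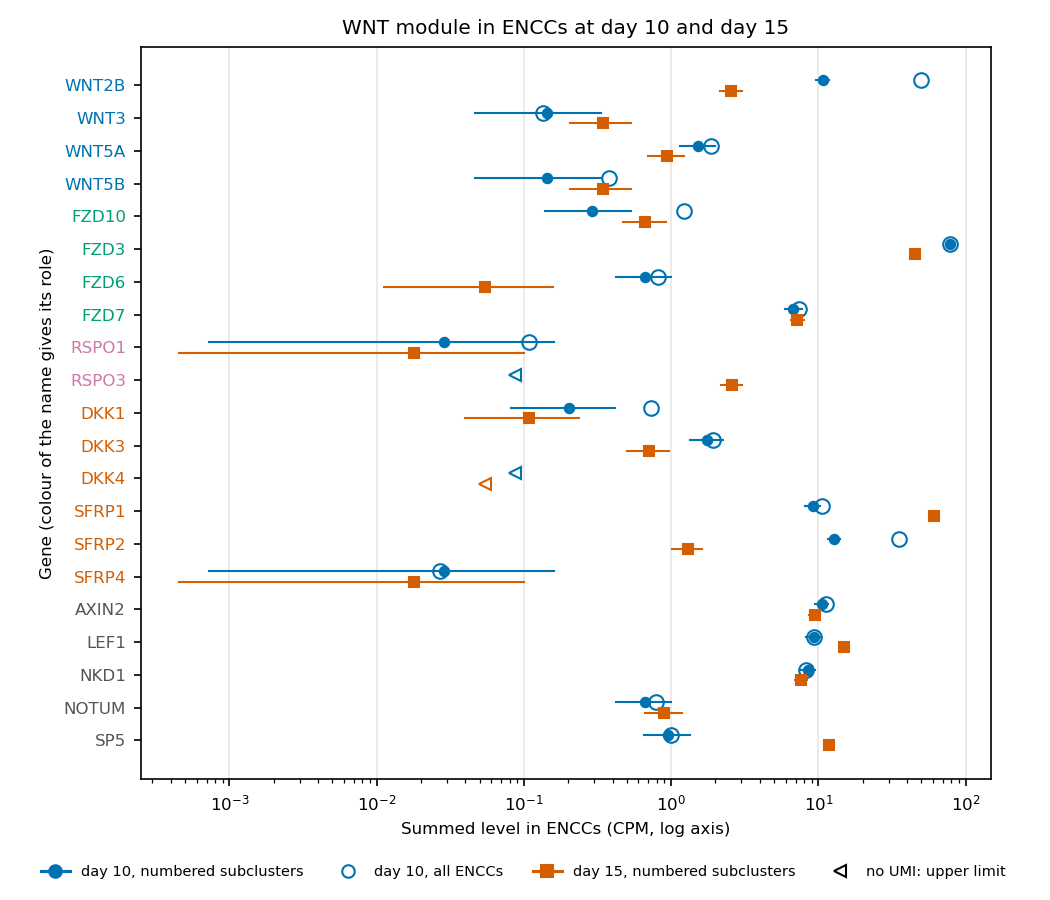
Level of the 21 described genes in ENCCs of day 10 (blue circles) and day 15 (orange squares), as CPM on a logarithmic axis with exact 95% Poisson intervals; filled symbols are cells of the numbered subclusters, open circles are all day 10 ENCCs, and open triangles are upper limits where no UMI was counted. SP5, SFRP1 and RSPO3 lie to the right at day 15, WNT2B and SFRP2 to the left, and open and filled circles of WNT2B (49.6 and 10.8 CPM) stand apart.

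Summed by role, the ligands of all ENCCs went from 52.8 CPM (50.5 to 55.2) at day 10 to 4.53 CPM (3.99 to 5.12) at day 15, and in numbered cells from 13.1 CPM (11.9 to 14.3) to 4.52 CPM (3.98 to 5.11). Receptors went from 91.4 CPM (88.4 to 94.6) to 59.5 CPM (57.5 to 61.6), which followed FZD3. Agonists went from 0.162 CPM (0.0596 to 0.353) to 2.76 CPM (2.34 to 3.23), of which RSPO3 gave 92.9%. Antagonists went from 48.5 CPM (46.3 to 50.8) to 63.3 CPM (61.2 to 65.4), a modest difference that hid an exchange of SFRP2, 72.6% of the sum at day 10, for SFRP1, 96.3% at day 15. In numbered cells the antagonist sum was 23.9 CPM (22.4 to 25.6) at day 10, so the size of its stage ratio moved with the 256 cells. In G1 cells its direction turned, with a log2 ratio of -0.44 against 0.38 in cells of all phases. Feedback genes went from 30.6 CPM (28.8 to 32.4) to 44.9 CPM (43.2 to 46.7).

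Over whole libraries, where fewer cells of a type and less RNA per cell cannot be told apart, 12 of 23 members were past 2-fold. SP5, RSPO3 and SFRP1 were higher at day 15, and 9 members were lower, against 8.47% and 10.1% of 13644 genes. The lower members were WNT2B, SFRP2, FZD10, SFRP4, FZD6, WNT5B, DKK1, WNT10B and WNT5A, and each of these was highest in NEP or NNE at day 10. Most members were highest there at day 10, with 19 in NEP and 4 in NNE of the 26 with at least 10 UMIs in their highest type. FZD10 was 4.89-fold lower (3.99 to 6.05) over whole libraries but 1.79-fold lower (1.14 to 2.83) within ENCCs, and its NEP intervals of the stages overlapped. In numbered ENCCs the direction of FZD10 turned, with 0.288 CPM at day 10 (0.138 to 0.53) and 0.666 CPM at day 15 (0.469 to 0.918), 2.31-fold higher (1.13 to 5.21) from 10 and 37 UMIs. The NEP cluster held 24.8% of kept cells at day 10 and 1.95% at day 15. The median of the 23 members was -0.73 on the log2 scale, against -0.17 for all genes.

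Within day 10, the NEP cluster exceeded ENCCs in ligands, receptors and antagonists at once. Of 24 members compared, 15 were past 2-fold higher and 0 lower, against 15.8% of 13578 genes higher and 2.72% lower. Members under 1 CPM in ENCCs, among them DKK1, WNT5B and WNT3, entered through NEP and could not be called lower. WNT2B is also a gene by which NEP was named. WNT2B was 16.7-fold higher (15.9 to 17.5), SFRP2 13.3-fold (12.5 to 14.1), DKK1 24.8-fold (16.6 to 38.3), FZD10 14.4-fold (10.4 to 20.2), WNT5B 16-fold (9.02 to 30.5) and FZD6 7.46-fold (4.87 to 11.7). The others were DKK3, SFRP1, WNT5A, FZD7, WNT3 and, outside the naming rule, WNT10B, WNT3A, FZD4 and FZD1. AXIN2, at 2.06-fold (1.78 to 2.39), lay just short of the threshold on CPM + 1. Against numbered ENCCs alone AXIN2 and RSPO1 passed it too, at log2 ratios of 1.07 and 1.10, which made 17 members. Without the 256 cells the ratios of the genes that they share with NEP were larger, and some of these are given below as percents of the NEP level. WNT5B was at 2.38% of its NEP level in numbered ENCCs (0.754 to 5.78), from 5 UMIs. SP5 and LEF1 did not differ beyond their intervals, at 0.996-fold (0.497 to 1.89) and 1.14-fold (0.937 to 1.39). NKD1 was 1.71-fold lower in NEP (1.31 to 2.26).

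The placode cluster of day 10 differed from ENCCs in the feedback genes NKD1, SP5 and LEF1 and in few other members, in part on few UMIs. Of 13 members compared, NKD1 at 2.26-fold (1.63 to 3.08), SP5 at 3.98-fold (1.77 to 8.17) and FZD1 were past 2-fold higher in CP, against 5.54% of 12329 genes, and SFRP2 and LEF1 were lower, against 3.48%. LEF1 was 2.59-fold lower in CP (1.35 to 5.70), from 9 UMIs, and the SP5 ratio rested on 10 UMIs in CP and 37 in ENCCs. SFRP2, 2.94-fold lower than in all ENCCs (2.05 to 4.38), was at 12.0 CPM in CP (8.07 to 17.1) and 12.8 CPM in numbered ENCCs, so that this call rested on the 256 cells. Against numbered ENCCs WNT2B was past 2-fold higher in CP instead, at a log2 ratio of 1.64.

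In NNE, 5 of 16 members were past 2-fold higher than in ENCCs, against 12.4% of 12510 genes, and 5 were lower, against 8.31%. SFRP4, WNT3, FZD6, WNT5A and DKK3 were the higher ones, with WNT5A 6.67-fold (3.97 to 10.8), FZD6 9.34-fold (4.58 to 18.2) and DKK3 4.23-fold (2.25 to 7.45) higher. SFRP2, WNT2B, FZD10, FZD3 and SP5 were lower, with FZD3 2.20-fold lower (1.72 to 2.85). The lower WNT2B call turned without the 256 cells, since NNE was at 15.2 CPM and numbered ENCCs at 10.8 CPM, with intervals that overlapped, while SFRP2, at 5.42 CPM in NNE (2.6 to 9.96), stayed below the 12.8 CPM of numbered ENCCs. FZD10 and SP5 had no UMI in NNE, but the limit of 1.62 CPM that this allows lies above their ENCC levels, so no difference in these genes was detectable at this depth. Against numbered ENCCs 7 members remained past 2-fold in NNE, without WNT2B, FZD10 and SP5.

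In crestospheres the CP1 cluster was low in members that ENCCs carried. Of 14 members compared, LEF1, FZD7, RSPO3, AXIN2 and SFRP1 were past 2-fold lower in CP1, against 8.31% of 12317 genes, and DKK3 was higher, against 14.7%. LEF1 was 11.9-fold lower (4.06 to 57.9) from 3 UMIs, FZD7 8.55-fold lower (2.35 to 70.9) from 2 UMIs, AXIN2 3.78-fold lower (1.72 to 10.3) and SFRP1 2.08-fold lower (1.64 to 2.67). SP5, at 1.23-fold (0.851 to 1.73), and NKD1, at 1.20-fold (0.745 to 1.84), did not differ beyond their intervals. Feedback genes of the same pathway thus had different levels relative to ENCCs in 1 cluster.

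The day 15 NEP cluster, 104 cells, was again higher than ENCCs in members of every role. Of 18 members compared, 12 were past 2-fold higher, against 18.1% of 12230 genes, and 0 were lower, against 8.48%. DKK1, DKK3, DKK4, FZD10 and RSPO1 were under 1 CPM in ENCCs, so they entered through NEP and could not be called lower. SFRP2 was 403-fold higher (318 to 517), DKK1 803-fold from 6 ENCC UMIs (356 to 2242), WNT2B 48.3-fold (38.0 to 61.5), DKK3 48.7-fold (30.6 to 77.4), FZD10 39.7-fold (23.9 to 65.5) and RSPO3 6.13-fold (3.53 to 10.0). SP5 at 2.49-fold (1.71 to 3.52), NKD1 at 2.73-fold (1.73 to 4.12) and FZD7 at 3.53-fold (2.33 to 5.15) were higher as well, as were RSPO1, DKK4 and FZD1. AXIN2 was at 1.29-fold (0.698 to 2.18), an interval that includes equality. SFRP1 was 1.37-fold lower in NEP (1.04 to 1.84).

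How much of a NEP gene was seen in the numbered ENCCs of day 10 differed between members. WNT2B was at 1.30% of its NEP level in numbered ENCCs (1.17 to 1.44), DKK1 at 1.12% (0.444 to 2.33), FZD10 at 1.65% (0.779 to 3.08) and SFRP2 at 2.74% (2.48 to 3.02). PAX6 was at 1.17% (1.02 to 1.33) and KRT19 at 1.51% (1.26 to 1.79) by the same measure. SFRP1 was at 28.2% (24.3 to 32.6), FZD7 at 40.3% (33.5 to 48.5), AXIN2 at 45.4% (39.0 to 52.9) and LEF1 at 87.4% (71.8 to 107), while NKD1 was above its NEP level, at 175.5% (134 to 232). WNT2B, DKK1 and FZD10 were thus seen in numbered ENCCs at shares like those of PAX6 and KRT19, and RNA free in the droplets, which could give a low level of this kind, was not measured. SFRP2 lay above WNT2B, PAX6 and KRT19, with an interval that overlapped none of theirs, but below TPBG, another gene of the NEP cluster, at 4.19% (3.73 to 4.69). In the 256 set-apart cells WNT2B was at 78.5% (74.3 to 82.9), SFRP2 at 81.3% (75.7 to 87.4), FZD10 at 88.8% (60.5 to 127) and DKK1 at 49.1% (29.5 to 77.5) of NEP. The crest gene SOX10 was at 208% of NEP (152 to 281) in these cells, against 997% (858 to 1165) in numbered ENCCs. Its levels were 26.2 CPM (20.0 to 33.8) and 126 CPM (122 to 130). Whether droplets with more than 1 cell are among the 256 cells was not tested.

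**Figure D3:**
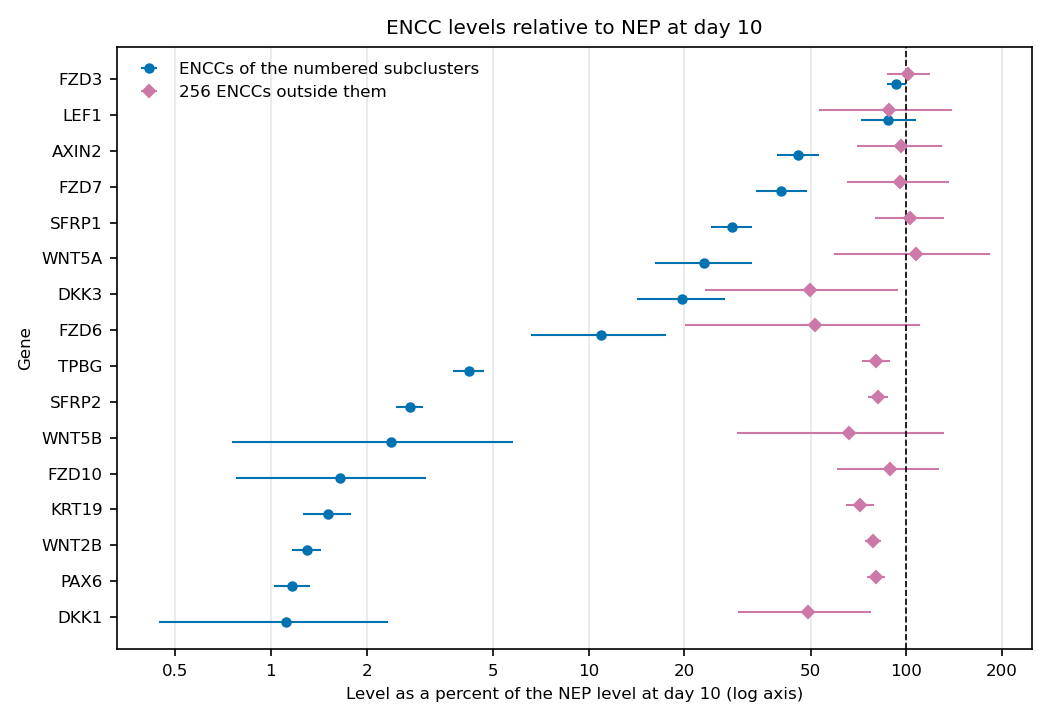
Level of the members with at least 80 UMIs in day 10 NEP and of the NEP-cluster genes PAX6, KRT19 and TPBG in numbered day 10 ENCCs (blue) and in the 256 ENCCs outside the subclusters (pink), as a percent of the NEP level on a logarithmic axis with exact 95% intervals; the dashed line is equality. Blue points run from 1.12% for DKK1 to 92.7% for FZD3, and pink points lie between 49.1% and 107%; NKD1, with fewer UMIs and not drawn, was above its NEP level in numbered ENCCs.

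At equal depth of 3000 UMIs per cell, 79.1% of NEP cells (77.1 to 81.0) had a WNT2B UMI at day 10, as had 73.6% of the set-apart ENCCs (67.8 to 78.9). Numbered ENCCs were at 3.15% (2.67 to 3.69), NNE at 4.68% (2.36 to 8.22) and CP at 6.81% (4.32 to 10.1), with median depths before thinning of 6943, 7349 and 7438 UMIs. Before thinning the shares were 87.8% in NEP and 7.57% in numbered ENCCs. In NEP, 902 of 1798 cells had both WNT2B and SFRP2 UMIs, and SFRP2 was seen in 63.4% of the cells with WNT2B and in 32.2% of those without. In the set-apart cells the same shares were 52.9% and 49.3%.

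Several members were carried by few cells of their cluster. If a level were equal in every cell of a class, the depth of the cells sets the share that should have a UMI. For FZD3 in day 10 NEP this share was 46.5% and 44.6% was seen, and AXIN2 in NEP was seen in 15.9% of cells against 16.2%. DKK1 was seen in 25.0% of day 15 NEP cells against 60.6%, and 5 of the 104 cells held at least 50% of its UMIs. SFRP4 in NNE was seen in 13% of cells against 32.3%, and 5 of 239 cells held at least 50% of its UMIs. WNT2B in CP was seen in 12.3% of cells against 23.7%, with up to 21 UMIs in a single cell, so the CP level above rested on few cells. SFRP2 in day 15 NEP was seen in 64.4% against 99.5%, and WNT2B in 46.1% against 73.2%. In numbered ENCCs of day 10, by contrast, WNT2B was seen in 7.57% of cells against 7.66%, as an even low level would give.

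**Figure D4:**
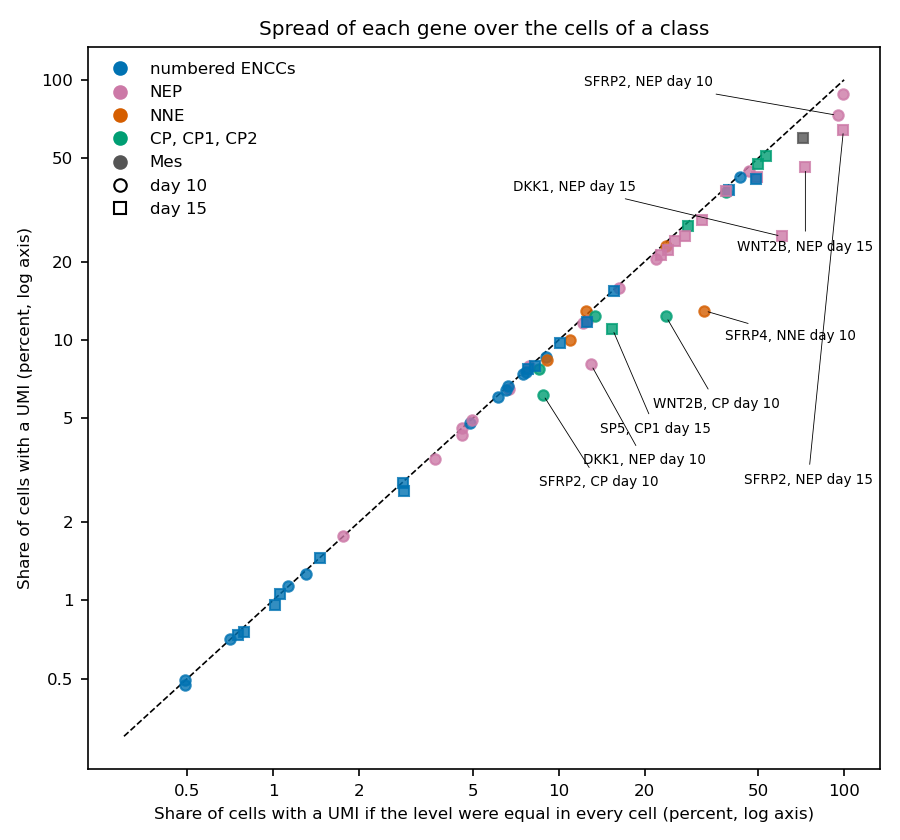
Share of cells of a class with at least 1 UMI of a gene (vertical axis) against the share its level would give if it were equal in every cell (horizontal axis), both in percent on logarithmic axes; each point is a gene in a class with at least 20 such cells, circles are day 10 and squares day 15, and the dashed line is equality. Labelled points, such as DKK1 in day 15 NEP (25.0% against 60.6%) and SFRP4 in NNE (13% against 32.3%), lie below the line, and most numbered ENCC points lie on it. Points of low genes lie near the line for almost any spread.

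SP5 and SFRP1 were spread over many day 15 ENCCs. At 3000 UMIs per cell, 4.01% of day 15 ENCCs (3.48 to 4.60) had an SP5 UMI, against 0.285% (0.156 to 0.477) at day 10, 0 of 235 NNE cells of day 10, which allows up to 1.28%, and 0 of 43 CP2 cells of day 15, which allows up to 6.98%. SFRP1 was seen in 15.9% of day 15 ENCCs (14.9 to 17.0), 8.65% of CP1 cells (5.21 to 13.3) and 3.07% of day 10 ENCCs (2.61 to 3.59). RSPO3 was seen in 0.628% of day 15 ENCCs (0.427 to 0.891) and in 0 of 208 CP1 cells, which allows up to 1.44%, so by shares alone the ENCCs could not be told from CP1. Median depths before thinning were 7004 UMIs for day 10 ENCCs, 11082 for day 15 ENCCs, 11734.5 for CP1 and 9256 for CP2. Without thinning, SP5 was seen in 11.7% and SFRP1 in 41.5% of day 15 ENCCs.

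Subclusters of ENCCs differed in SFRP1, RSPO3, NKD1 and AXIN2, among other members. SFRP1 was at 78.0 CPM in ENCC 2′ (74.7 to 81.4), 54.7 in ENCC 1′ (51.4 to 58.1), 27.9 in ENCC 3′ (24.4 to 31.8) and 19.8 in ENCC 4′ (13.4 to 28.2), an order in which only the last 2 overlapped. RSPO3 had another order, at 6.10 CPM in ENCC 3′ (4.53 to 8.04), 2.32 in ENCC 1′ (1.68 to 3.11), 1.83 in ENCC 2′ (1.35 to 2.41) and no UMI in ENCC 4′, which allows 1.98 CPM. SP5 was at 12.5, 12.0, 11.1 and 6.60 CPM in ENCC 1′ to ENCC 4′, with overlapping intervals, and LEF1 at 14.7, 15.2, 15.2 and 13.8 CPM, likewise. AXIN2 was at 19.8 CPM in the 138 cells of ENCC 4′ (13.4 to 28.2), above ENCC 1′ at 8.69 CPM (7.41 to 10.1), ENCC 2′ at 9.99 CPM (8.83 to 11.3) and ENCC 3′ at 7.69 CPM (5.91 to 9.84).

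At day 10, NKD1 and AXIN2 differed between subclusters in opposite directions. NKD1 was at 20.3 CPM in ENCC 4 (13.5 to 29.3) and 15.6 CPM in ENCC 3 (10.9 to 21.7), levels that overlapped, against 7.45 CPM in ENCC 1 (6.37 to 8.65) and 7.52 CPM in ENCC 2 (5.75 to 9.66). AXIN2 was at 4.34 CPM in ENCC 4 (1.59 to 9.45) and 5.34 CPM in ENCC 3 (2.76 to 9.33), against 10.7 CPM in ENCC 1 (9.42 to 12.1) and 12.5 CPM in ENCC 2 (10.1 to 15.1). The AXIN2 values rested on 6 UMIs in ENCC 4 and 12 in ENCC 3, and the intervals of ENCC 4 and ENCC 1 just overlapped. NKD1 and AXIN2 also differed in these directions between CP and ENCCs. Other members differed as well, with WNT5A at 2.71 CPM in ENCC 2 (1.70 to 4.11) and 1.18 CPM in ENCC 1 (0.775 to 1.71). WNT2B was at 10.1, 12.3, 12.0 and 10.1 CPM in ENCC 1 to ENCC 4, with overlapping intervals.

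**Figure D5:**
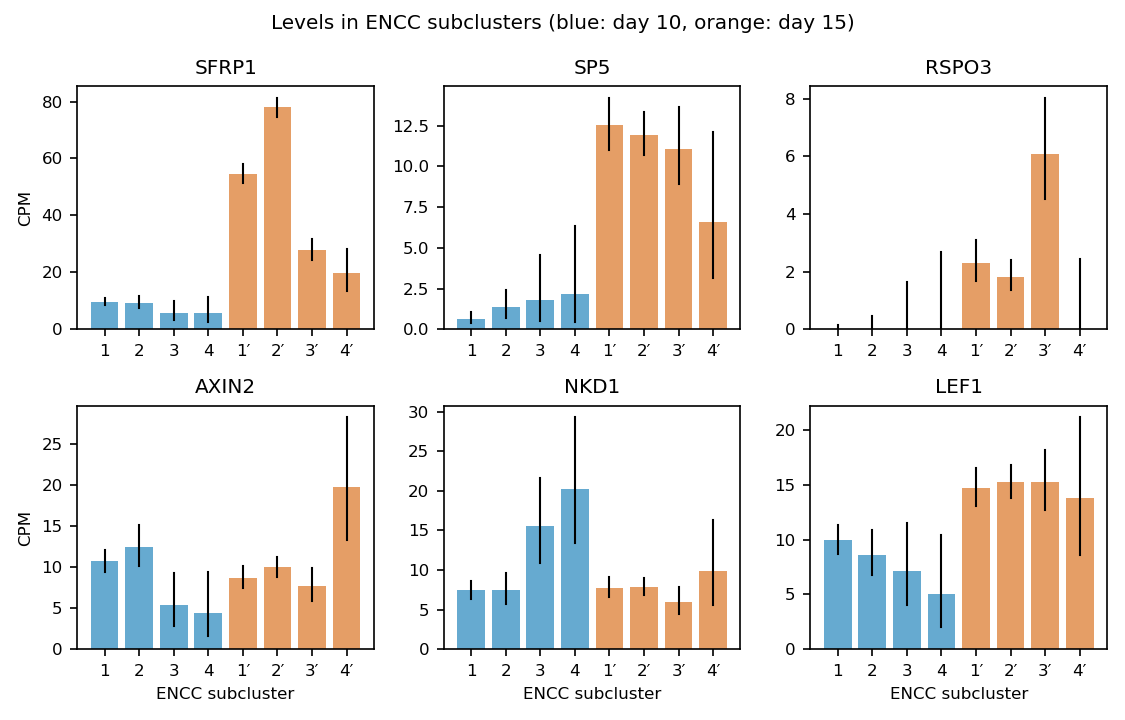
Level of 6 members in the ENCC subclusters of day 10 (1 to 4, blue) and day 15 (1′ to 4′, orange), in CPM from 0, with exact 95% Poisson intervals as vertical lines. SFRP1 was highest in ENCC 2′ (78.0 CPM), RSPO3 in ENCC 3′ (6.10 CPM), AXIN2 in ENCC 4′ (19.8 CPM) and NKD1 in ENCC 4 (20.3 CPM).

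Cell cycle phase, as deposited, went with some levels in ENCCs. SFRP1 at day 15 was at 73.8 CPM in S (70.4 to 77.4), 58.4 in G2M (54.5 to 62.5) and 45.4 in G1 (42.3 to 48.7), and SP5 at 15.3 CPM in G2M (13.4 to 17.5), 11.6 in S (10.3 to 13.1) and 9.40 in G1 (8.02 to 11). AXIN2 did not differ between phases beyond its intervals, at 10.0, 9.55 and 8.74 CPM in G1, S and G2M of day 15. Both SFRP1 and SP5 were higher at day 15 than at day 10 within every phase, the day 10 levels being at most 13.1 CPM for SFRP1 and 1.41 CPM for SP5.

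Other genes of the pathway, from a list of 47, gave a frame for these members. In ENCCs, 8 of 41 compared were past 2-fold higher at day 15 and 4 lower, against 7.75% and 6.70% of all genes, with a median log2 ratio of 0.09 against -0.14. In numbered ENCCs alone 8 of 41 were higher and 2 lower, against 8.27% and 5.61% of genes. The medians there were 0.12 and -0.11. DRAXIN, a secreted antagonist that acts on the co-receptors and guides axons, went from 4.90 to 53.7 CPM and was at 41.0 CPM or more in every day 15 type. TLE2, a co-repressor of TCF factors, went from 0.0812 to 1.97 CPM and APCDD1, a membrane inhibitor and WNT target, from 3.17 to 9.15 CPM. ROR1, a receptor for WNT5A, went from 35.1 to 11.4 CPM and TPBG, a membrane inhibitor, from 20.4 to 6.36 CPM. In numbered ENCCs TPBG went from 9.71 to 6.36 CPM, which was not past 2-fold. CTNNB1, which encodes β-catenin, went from 116 CPM (112 to 119) to 235 CPM (231 to 239). CTNNB1 was picked out after its values were seen, because at day 10 it was at 299 CPM in ENCC 2 (288 to 311) and at 49.2 CPM in ENCC 1 (46.4 to 52.2). The intervals of AXIN2, LEF1 and NKD1 in ENCC 2 and ENCC 1 overlapped. SP5 was at 1.36 CPM in ENCC 2 (0.677 to 2.43) and 0.653 CPM in ENCC 1 (0.366 to 1.08), intervals that overlapped as well, but ENCC 1 lay below the pool of the other numbered ENCCs, at 1.53 CPM.

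In the NEP cluster the list stayed near the shares of all genes. At day 10, 7 of 41 were past 2-fold higher than in ENCCs and 1 lower, against 15.8% and 2.72% of all genes, with a median log2 ratio of 0.28 against 0.22 for all genes. Among the higher were TPBG at 232 against 20.4 CPM, APCDD1 at 23.6 against 3.17 CPM, TLE4 at 84.2 against 18.6 CPM, and WLS, the carrier that brings WNT ligands to the cell surface, at 97.7 against 38.8 CPM. At day 15, 8 of 41 were higher and 3 lower, against 18.1% and 8.48% of all genes, with a median of 0.26 against 0.25. The higher ones were led by TPBG at 344 CPM, TLE4 at 371 CPM, APCDD1 at 144 CPM and KREMEN2, a partner of DKK1 on the co-receptors, at 15.7 CPM, against 6.36, 21.1, 9.15 and 0.233 CPM in ENCCs. In NNE, 9 of 39 were higher and 6 lower, against 12.4% and 8.31% of all genes. RNF43, an enzyme that removes Frizzled receptors from the membrane, was among the higher, at 16.2 against 1.03 CPM. In CP, 2 of 39 were higher (RNF43 and TNFRSF19) and 0 lower, against 5.54% and 3.48% of all genes. In CP1, 8 of 40 were higher and 10 lower, against 14.7% and 8.31% of all genes. The lower ones were led by APCDD1 at 0.837 against 9.15 CPM and ROR2 with no UMI, while MYC was at 23.4 against 5.68 CPM and GSK3B at 77.9 against 28.3 CPM.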

How the data were processed

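Droplet-based 3′ libraries (Chromium Next GEM v3.1) were made from H9 cultures at day 10 and day 15. The authors deposited whole-number UMI counts per gene and cell, without normalization, extracted with kallisto and bustools according to their methods, while the submitters' processing notes name Cell Ranger, Seurat 4.0.4 and GRCh38; the annotation is not given in the sources used here. The deposited metadata hold cell type, subcluster, phase and the percent of mitochondrial and ribosomal UMIs. The authors marked low-quality cells (2332 at day 10, 984 at day 15), which entered whole-library sums only. Doublets were not removed here.

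Counts were summed per class and divided by the total UMIs of the class (CPM). Sums carry exact Poisson intervals, ratios exact conditional intervals and shares Clopper-Pearson intervals, all at 95%. Where no UMI was counted, the upper limit was set at 3 UMIs. Comparisons used log2 ratios of CPM + 1 for genes with at least 10 UMIs and 1 CPM in 1 group, and with 1 library per stage no test was run. Genes were named if they were feedback genes, reached 5 CPM with 10 UMIs in a cell type, or passed 2-fold between stages in ENCCs; of the other pathway genes up to 6 per comparison were named. The members and lists were chosen with earlier results of these data known. AXIN2 overlaps the coding gene AC004805.1 on the same strand in GENCODE, and how shared reads were counted is not given, so its counts are less certain. Summing and calling were tested on simulated data. Alternatives were pseudocounts of 0.1 and 5 CPM, other minimums, TMM scaling (edgeR 4.0.16), kept cells, G1 cells, thinning to 3000 UMIs and numbered ENCCs. Python 3.11.15, scipy 1.17.1 and R 4.3.3 were used.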

Additional observations from a re-analysis of the deposited data

Results flagged for a closer look

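Cells that the quality filters removed entered no comparison of cell types, and 3 values in them lay above those of the kept cells by more than 2-fold beyond counting error. At day 10, WNT2B was at 529 CPM in the 2332 removed cells, 2.16-fold (2.10 to 2.22) the 245 CPM of the kept cells. DKK1 at day 10 was at 14.4 CPM in removed cells, 2.82-fold (2.36 to 3.38) the 5.10 CPM of kept cells. At day 15, DKK1 was at 4.75 CPM in the 984 removed cells, 2.71-fold (2.06 to 3.55) the 1.76 CPM of kept cells. The day 15 value of WNT2B in removed cells, 3.74 CPM against 4.84 CPM in kept cells, showed no such excess.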

How the results depend on the processing

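The number of members past 2-fold depended mostly on the pseudocount. With 5 CPM it went from 12 to 4 over whole libraries, from 15 to 7 for NEP and from 5 to 1 for CP over ENCCs at day 10, and from 6 to 2 for CP1 at day 15. With 0.1 CPM it went from 5 to 8 between stages in ENCCs. A minimum of 5 CPM gave 6 over whole libraries and 3 for CP. The ligand sum of ENCCs, at a log2 ratio of -3.54 between stages, was at -4.35 in G1 cells and -1.53 in numbered cells. The receptor sum, at -0.62, was at -0.43 with TMM scaling and -0.90 in G1 cells. The agonist sum, at 4.09, was at 5.59 in numbered cells. The antagonist sum, at 0.38, was at 0.57 with TMM scaling, 0.58 after thinning and 1.40 in numbered cells, and reversed to -0.44 in G1 cells, where the SFRP2 level of day 10 was 51.6 CPM against 35.2 CPM in all phases. The feedback sum, at 0.56, was at 0.74 with TMM scaling, 0.75 after thinning and 0.39 in G1 cells. TMM scaling moved the median of all genes from -0.14 to 0.03. SP5, SFRP1, SFRP2 and WNT2B stayed past 2-fold in the same direction under all 6 alternatives run for single genes. RSPO3 was at 0.60 with the 5 CPM pseudocount, FZD3 at -1.05 in G1 cells and DKK3 at -1.31 with 0.1 CPM, the other side of 2-fold in each case. AXIN2 changed sign after thinning (0.06), NKD1 with TMM scaling (0.07), FZD7 with TMM scaling and in numbered cells, and FZD10 after thinning and in numbered cells, none of them past 2-fold. The cause was not tested except where stated. No paired analysis was possible because each stage is 1 library. Depth limits the clusters of 43 to 104 cells most.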
